A study of Ovis aries with 40 samples.

Results

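Elastic fibres give the lung its recoil. They are built from a core of cross-linked tropoelastin, laid down on a scaffold of fibrillin microfibrils with the help of fibulins and latent TGF-beta binding proteins, and lysyl oxidases join the tropoelastin molecules to one another. In the developing lung this matrix is made by fibroblasts, myofibroblasts and smooth muscle while the air spaces divide, and once laid down it turns over slowly. The genes described here were 10 of the 24478 genes counted in the series, found by symbol. They were the elastin gene *ELN*, the microfibril and interface genes *FBN1*, *FBN2*, *EMILIN1* and *MFAP4*, the assembly genes *FBLN5*, *EFEMP2* and *LTBP4*, and the cross-linking genes *LOX* and *LOXL1*. All 10 passed the filter on low counts in every fit.

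The series held bulk RNA-seq of proximal and distal lung from American Romney sheep, wildtype (WT) or *CFTR*-/- (CF), at gestation days 65, 80, 100, 120 and 147 (term), with 2 libraries in each of the 20 conditions and 40 in all. CFTR is the epithelial chloride channel whose loss causes cystic fibrosis. The CF animals were made by nuclear transfer from 1 male line of fetal fibroblasts in which exon 2 of *CFTR* had been targeted, so they were clones, whereas the WT animals were bred naturally and those at term were born naturally. A difference between CF and WT therefore cannot be told apart from one between cloned and bred animals. Samples of day 50 were not analysed here.

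Total counts per library were 24670355 to 43700012 in WT before term, 85773994 to 103139483 in CF before term and 115937437 to 126749480 at term, so depth differed with genotype before term and with time in WT. By design, CF against WT before term cannot be told apart from that difference in sequencing. The same holds for term against earlier days in WT, which also coincided with birth. The 2 WT day 100 replicates of each region carried the same animal label, and may be pieces of 1 animal. They differed by more than counting noise, so they are not 1 library counted again, but the distal pair was the closest of all conditions (chi-square per gene 6.98, against 19.5 to 1852 in the others). The proximal pair gave 40.7, within the range of the other WT pairs before term (19.5 to 60.9). This value also rises with depth, which was higher in CF and at term. They were analysed as 2 replicates, and calls that are lost when they are summed to 1 are named. One animal label was also shared by a WT sample of day 65 and a CF sample of day 100, which were placed by their titles. The tissue was labelled as epithelial. Epithelial markers such as *EPCAM* (median 178 CPM, counts scaled to library size, with TMM factors over the 40 libraries) were present, but the 7 fibroblast markers had the largest sum of the 8 marker lists, from 3049 to 24827 CPM per library against 448 to 1794 CPM for 6 epithelial markers. That sum was mostly collagen (medians *COL1A1* 1799, *COL1A2* 2560 and *COL3A1* 4953 CPM). The other fibroblast markers had medians of 32.7 to 274 CPM, against 45.5 to 219 CPM for the epithelial ones. These libraries therefore read mesenchyme as well as epithelium, and the share of each cannot be read from the sums. The second CF proximal library of day 120 stood apart. Its mitochondrial share was 0.942% against 1.54% or more in every other library, and it differed from its replicate more than any other pair did (chi-square per gene 1852, against 648 or less). Where leaving it out changed a call, or an overlap that is described, both are given. In bulk tissue, fewer cells of a type and less RNA per cell cannot be told apart.

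The first question was how strongly each gene was expressed and where it lies. Positions are those of the deposited annotation on Oar_v4.0. *ELN* lies at chr24:33178422-33210883 on the minus strand with 3636 bases of exon, *FBN1* at chr7:58577856-58852118, and *FBN2* and *LOX* both lie on chromosome 5, at chr5:22980679-23208590 and chr5:29183086-29191741. *FBLN5* at chr18:55421976-55514200 and *LOXL1* at chr18:33521145-33545932 share chromosome 18, and the others lie on chromosomes 3 (*EMILIN1*), 11 (*MFAP4*), 14 (*LTBP4*) and 21 (*EFEMP2*). Levels between genes were compared per kilobase of exon (RPKM). *ELN* had the highest median over the 40 libraries, 308 RPKM, with a range of 97.8 to 847 RPKM, and ranked 87 of 20779 genes by mean CPM. *MFAP4* came next with a median of 182 RPKM and the widest relative range of the non-enzyme genes, 49.5 to 687 RPKM. *LTBP4* (86.3 RPKM), *EFEMP2* (64.5 RPKM) and *EMILIN1* (60.0 RPKM) formed the middle of the order, followed by *LOXL1* (42.2 RPKM), *FBN2* (38.3 RPKM) and *FBN1* (23.6 RPKM). *FBLN5* (18.1 RPKM) and *LOX* (16.2 RPKM) were lowest, and the ranges of these neighbours overlapped across libraries.

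The summed level of the 10 genes had its lowest mean at day 65 or 80 and its highest at day 120 in all 4 courses. The 2 WT distal libraries summed to 1753 and 1940.5 CPM at day 80, 3829.9 and 3995 CPM at day 120 and 3357 and 4098 CPM at term. The CF distal libraries summed to 2396 and 2503 CPM at day 80, 4526 and 4536 CPM at day 120 and 3144 and 5185 CPM at term. The share of *ELN* in that sum was lowest at day 80 in distal lung and highest at term. In WT distal lung it was 25.2% and 50.2% at day 65, 21.9% and 31.5% at day 80 and 51.6% and 70.3% at term. In CF distal lung it was 32.2% and 37.6% at day 65, 19.8% and 24.0% at day 80 and 59.3% and 59.4% at term.

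**Figure D1:**
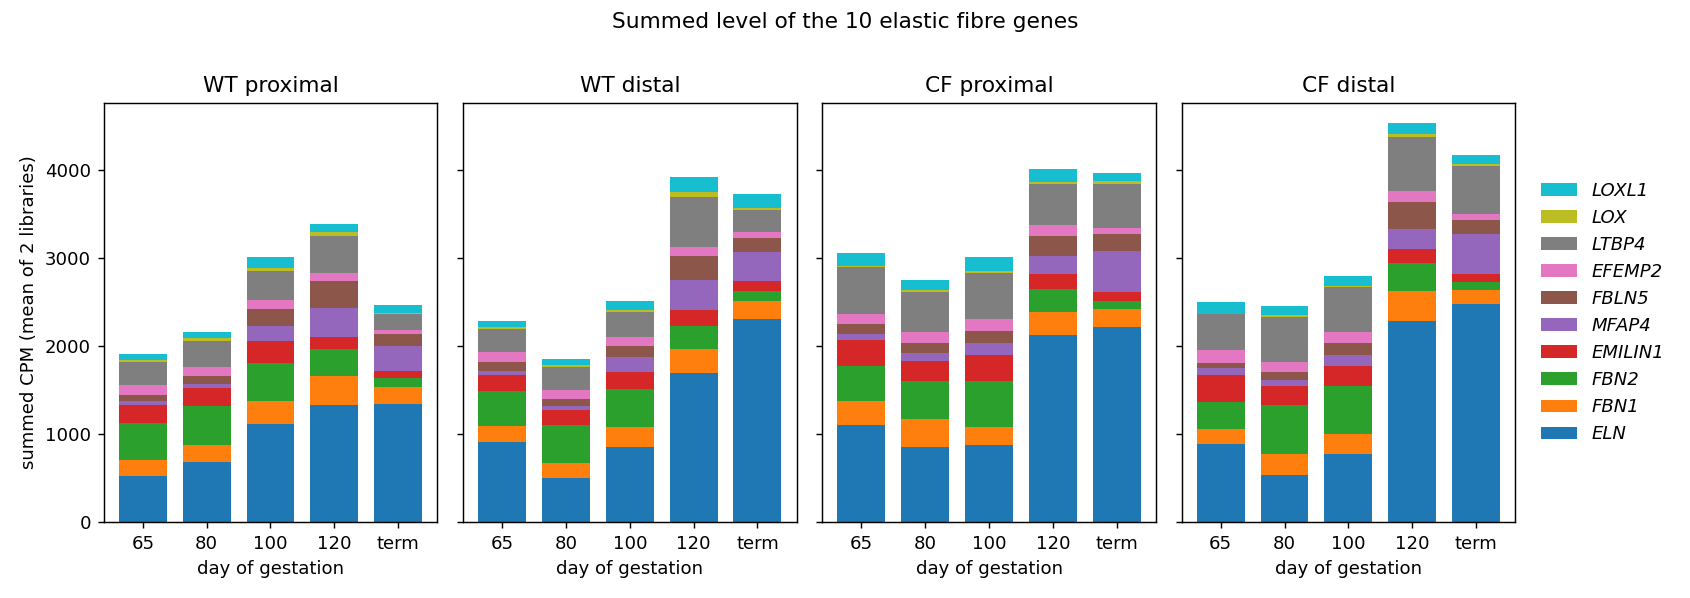
Summed CPM of the 10 genes on the y axis, as means of 2 libraries, by day of gestation on the x axis, with 1 panel for each genotype and region and 1 colour for each gene. *ELN*, at the base of each bar, takes up most of the sum at term, while *FBN2*, which is broad up to day 100, becomes a thin band at term.

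To ask which genes changed over gestation at all, each time course of 10 libraries was tested for any difference between its 5 time points. Adjusted p throughout are from edgeR's quasi-likelihood test (Benjamini-Hochberg, every tested gene included), and a gene was called at 0.05 or less. In WT proximal lung 8 of the 10 genes were called, where 40.8% of all genes were, and *ELN* (adjusted p = 0.0886) and *LOXL1* (adjusted p = 0.342) were not. The call of *LTBP4* there (adjusted p = 0.0401) was lost in 8 of 10 leave-one-out fits, all but those without a library of day 100, and that of *FBN1* without the second library of day 65, the first of day 100 or either of day 120. In WT distal lung 8 of 10 were called against 40.4% of all genes, and *EMILIN1* (adjusted p = 0.0730) and *FBN1* (adjusted p = 0.108) were not. DESeq2 called both of these (adjusted p = 0.0106 and 0.0235), and a length correction called *FBN1* (adjusted p = 0.0108). The call of *ELN* there was lost with the WT day 100 libraries summed (adjusted p = 0.0518) and without the first library of day 80 or either of day 100. In CF distal lung 6 of 10 were called against 33.9% of all genes, namely *ELN*, *FBN2*, *EMILIN1*, *MFAP4*, *FBLN5* and *EFEMP2*. Of these, *EMILIN1* was lost without the first library of day 65, either of day 80 or the second of term, and *EFEMP2* without the second of term. In CF proximal lung *MFAP4* was the 1 gene called (adjusted p = 0.00614), and 5.36% of all genes were called there. Without the second CF proximal library of day 120, *FBN2* and *EMILIN1* were called too, which made 3 of 10, and without the first library of that day the count was also 3.

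*ELN* encodes tropoelastin, the soluble precursor that is cross-linked into the fibre core. Its 2 WT proximal libraries measured 694 and 356 CPM at day 65, 359 and 1009 CPM at day 80, 1049.8 and 1181 CPM at day 100, 1398 and 1265 CPM at day 120 and 1269 and 1421 CPM at term. The WT distal libraries measured 1353 and 470.1 CPM at day 65, 384 and 612 CPM at day 80, 903 and 797 CPM at day 100, 1652 and 1738 CPM at day 120 and 1732 and 2879 CPM at term. Replicates lay up to 2.88-fold apart at days 65 and 80 in WT and closer from day 100 to day 120. In CF proximal lung the values were 1430.0 and 772 CPM at day 65, 675 and 1033 CPM at day 80, 672 and 1072 CPM at day 100, 1836 and 2408 CPM at day 120 and 2396 and 2039.7 CPM at term. The CF distal values were 1169 and 611 CPM at day 65, 495 and 576 CPM at day 80, 713 and 839 CPM at day 100, 2190.1 and 2373 CPM at day 120 and 3078 and 1863 CPM at term. In distal lung of both genotypes every library of day 120 was above every library of day 100, and those of day 120 and term overlapped. Averaged over genotypes, *ELN* rose by 1.30 ± 0.30 (SE) on the log2 scale from day 100 to day 120 in distal lung, a 2.46-fold increase (adjusted p = 0.0153). The same interval in proximal lung gave 0.77 ± 0.33 (adjusted p = 0.304). From day 120 to term the difference was 0.26 ± 0.29 in distal lung with a 95% interval of -0.37 to 0.89, and 0.04 ± 0.32 in proximal lung with an interval of -0.66 to 0.73, and neither was called. The distal call was lost when either WT or either CF library of day 100, or either WT library of day 120, was left out, with values of 1.22 to 1.34 over the leave-one-out fits, and when the 2 WT day 100 libraries were summed to 1.

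**Figure D2:**
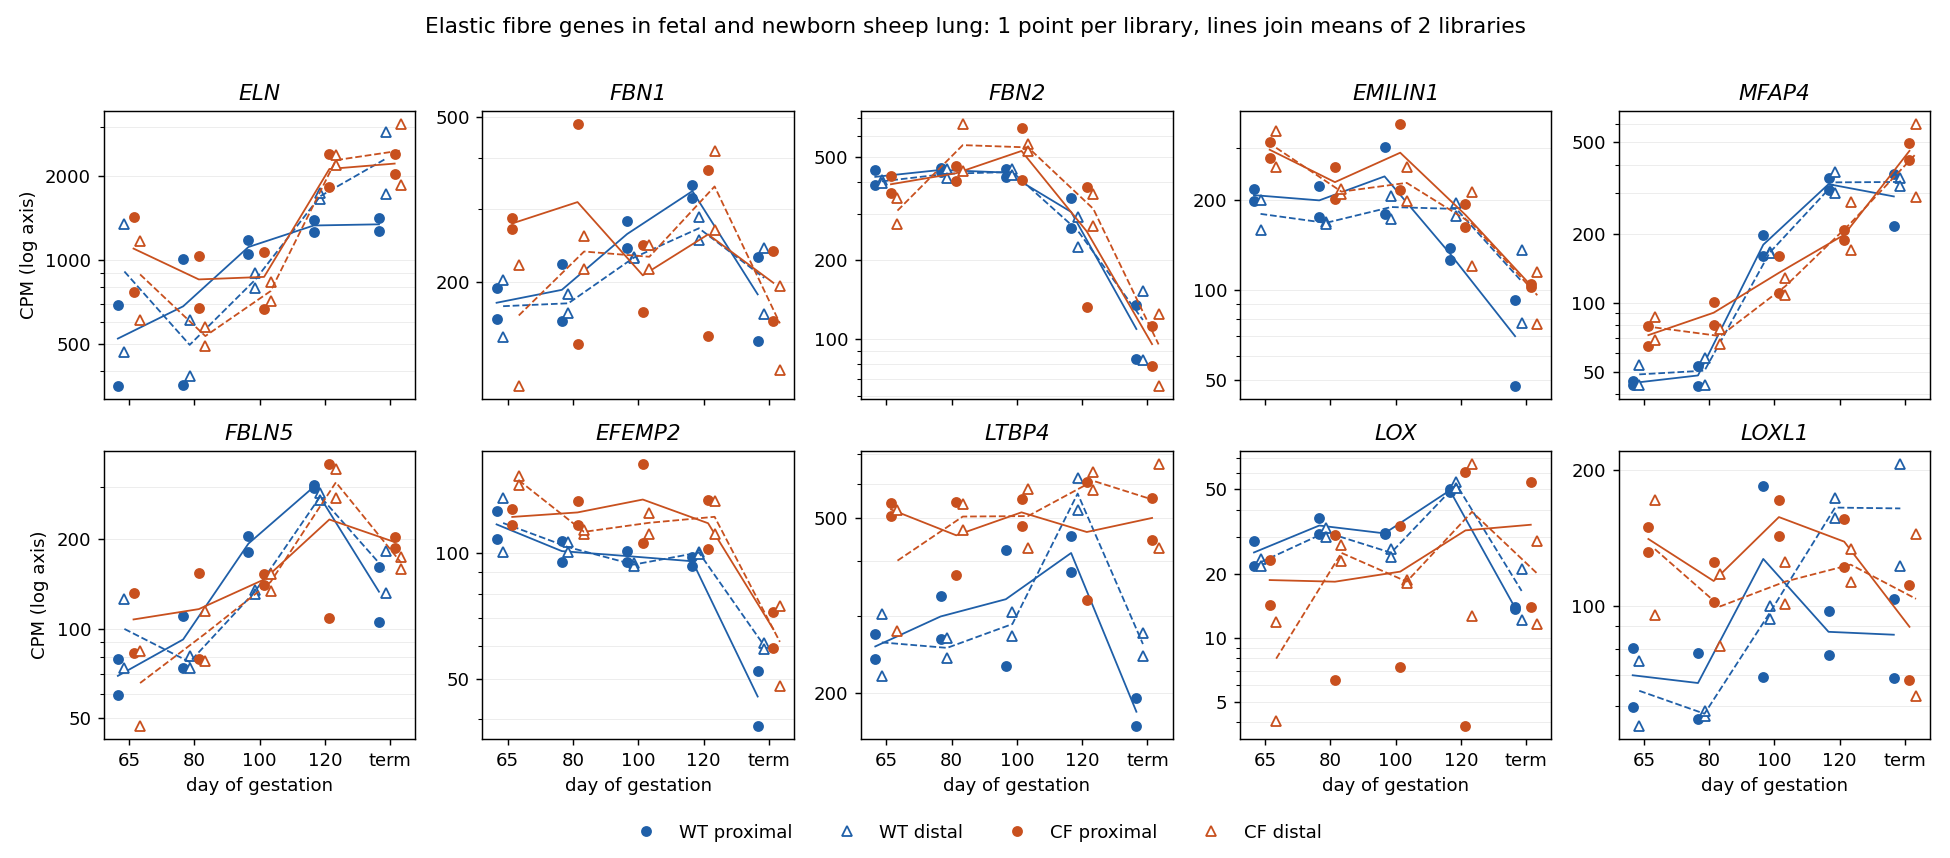
CPM on a log axis by day of gestation for each of the 10 genes, 1 point per library, with WT in blue, CF in orange, filled circles for proximal and open triangles for distal lung, and lines joining the means of 2 libraries. *ELN* and *MFAP4* are higher at term than at day 80 in all 4 courses, while *FBN2*, *EFEMP2* and *EMILIN1* are lowest at term.

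*MFAP4*, a microfibril-associated protein that binds tropoelastin and fibrillin, was the first of the 10 genes to be called as higher. In WT proximal lung it measured 45.5 and 43.8 CPM at day 65, 52.8 and 43.4 CPM at day 80, 159.6 and 198 CPM at day 100, 309 and 348 CPM at day 120 and 364 and 216 CPM at term. Its WT distal libraries measured 53.5 and 43.8 CPM at day 65, 57.4 and 43.5 CPM at day 80, 167 and 164 CPM at day 100, 299 and 369.8 CPM at day 120 and 351 and 321 CPM at term. No library of day 65 or 80 reached any library of day 100 in WT. In CF proximal lung the values were 79.3 and 64.9 CPM at day 65, 80.2 and 101 CPM at day 80, 110.1 and 159.6 CPM at day 100, 208 and 187 CPM at day 120 and 498 and 420.0 CPM at term. In CF distal lung they were 86.9 and 68.9 CPM at day 65, 66.1 and 76.8 CPM at day 80, 108 and 128 CPM at day 100, 169.9 and 274 CPM at day 120 and 602 and 289 CPM at term. CF libraries were above the WT libraries of their region at days 65 and 80 and below them at day 120, and the highest value of the gene was that of a CF library at term. Averaged over genotypes, *MFAP4* rose from day 80 to day 100 by 1.24 ± 0.19 in proximal lung (2.36-fold, adjusted p = 0.00899) and by 1.22 ± 0.21 in distal lung (2.34-fold, adjusted p = 0.00657). It was the 1 member called in each region, where 0.374% and 1.36% of all genes were called as higher. The rise was smaller in CF (0.59 ± 0.27 and 0.71 ± 0.34 in proximal and distal lung) than in WT (1.88 ± 0.23 and 1.71 ± 0.18), a difference that was tested as an interaction and not called. Smooth muscle markers *ACTA2* (1.10) and *TAGLN* (0.61) and the pericyte marker *KCNJ8* (0.70) also rose in distal lung in this interval and the cartilage gene *COL2A1* fell by 1.58, while no marker was called in proximal lung, and their part in the rise of *MFAP4* was not tested. From day 100 to day 120 it rose again in distal lung, by 0.98 ± 0.21 (adjusted p = 0.00850), and gave 0.71 ± 0.18 in proximal lung (adjusted p = 0.0596). The proximal call from day 80 to day 100 was lost without either WT library of day 80, the second WT library of day 100 or the second CF library of day 80 (1.09 to 1.36 over the leave-one-out fits), and the distal one without the second WT library of day 80. The distal call from day 100 to day 120 was lost without either WT or the first CF library of day 100 (0.77 to 1.12) and when the WT day 100 libraries were summed.

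The fibrillins form the microfibril scaffold, and *FBN2* is known as the fibrillin of fetal tissue. In WT proximal lung *FBN2* measured 445 and 390.4 CPM at day 65, 453 and 436 CPM at day 80, 449.7 and 419 CPM at day 100, 347 and 266 CPM at day 120 and 135 and 83.2 CPM at term. The WT distal libraries measured 407 and 396 CPM at day 65, 447 and 412 CPM at day 80, 447 and 426 CPM at day 100, 294 and 226 CPM at day 120 and 153 and 83.0 CPM at term. Replicates up to day 100 lay within 1.14-fold of each other in WT. In CF proximal lung it measured 361 and 422 CPM at day 65, 404 and 459.5 CPM at day 80, 643 and 408 CPM at day 100, 383 and 133 CPM at day 120 and 112 and 78.4 CPM at term. In CF distal lung it measured 346 and 274 CPM at day 65, 668 and 438 CPM at day 80, 560.1 and 524 CPM at day 100, 359 and 271 CPM at day 120 and 124 and 65.9 CPM at term. Every library of term was below every library of day 120 in the same genotype and region. Averaged over genotypes, *FBN2* fell by 1.47 ± 0.28 in proximal lung (adjusted p = 0.00460) and by 1.46 ± 0.23 in distal lung (adjusted p = 0.000288) from day 120 to term. *FBN1*, the fibrillin of the adult fibre, had a smaller range. It measured 287 and 253 CPM in WT and 414 and 268 CPM in CF distal lung at day 120, and 242 and 168 CPM in WT and 196 and 123 CPM in CF at term. It fell by 0.77 ± 0.22 in distal lung (adjusted p = 0.0124), a call that was lost under a correction for gene length, where the value was -0.34, and without the first WT or CF library of day 120 or the second WT or CF library of term (-0.95 to -0.58 over the leave-one-out fits). Its proximal value was -0.61 ± 0.35 (adjusted p = 0.301).

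*EMILIN1*, a glycoprotein at the interface of elastin and microfibrils, was lowest at term. Its highest mean was at day 100 in WT, with 179.8 and 301 CPM in proximal and 206 and 174 CPM in distal lung, and at day 65 in CF. Its libraries measured 199 and 218 CPM in WT proximal, 159 and 201 CPM in WT distal, 315 and 276 CPM in CF proximal and 341 and 259 CPM in CF distal lung at day 65. At term the same 4 groups measured 92.4 and 47.9 CPM, 136 and 77.9 CPM, 105 and 103 CPM, and 115 and 77.1 CPM. All 8 term libraries were below all 8 libraries of day 65. From day 120 to term *EMILIN1* fell by 0.85 ± 0.23 in proximal (adjusted p = 0.0280) and by 0.82 ± 0.21 in distal lung (adjusted p = 0.00684). The proximal call was lost when either WT library of day 120, the second WT library of term or either CF library of term was left out, with values of -1.13 to -0.65 over the leave-one-out fits.

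Of the assembly genes, *FBLN5* encodes fibulin-5, which carries tropoelastin to the microfibril. It peaked at day 120. In WT distal lung it measured 135 and 131 CPM at day 100, 287 and 270.5 CPM at day 120 and 182 and 132 CPM at term, and in CF distal lung 134 and 153 CPM, 346 and 276 CPM, and 174 and 159 CPM. Each library of day 120 exceeded every library of day 100 and of term in distal lung. Averaged over genotypes, distal *FBLN5* rose by 1.11 ± 0.20 from day 100 to day 120 (2.16-fold, adjusted p = 0.00308) and fell by 0.88 ± 0.20 from day 120 to term (adjusted p = 0.00325), or by 0.52 with the length correction, where it was still called. In proximal lung the WT libraries gave a like course, with 206 and 181 CPM at day 100, 304 and 297 CPM at day 120 and 161 and 105 CPM at term. The CF proximal libraries of day 120 measured 358 and 108 CPM, the lower of them being the library that stood apart. The proximal change to term was -0.71 ± 0.32 (adjusted p = 0.177), and without that library it was -1.03 (adjusted p = 0.00908).

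*EFEMP2* encodes fibulin-4, which brings lysyl oxidase to tropoelastin. It ranged from 93.2 to 163 CPM up to day 120. At day 120 it measured 93.2 and 98.2 CPM in WT proximal, 101 and 99.8 CPM in WT distal, 102 and 134 CPM in CF proximal and 111 and 133 CPM in CF distal lung. At term these groups measured 52.2 and 38.5 CPM, 61.1 and 59.0 CPM, 72.2 and 59.3 CPM, and 74.7 and 48.0 CPM. No library of term reached any of day 120. It fell by 0.96 ± 0.16 in proximal (adjusted p = 0.00214) and by 0.89 ± 0.14 in distal lung (adjusted p = 0.000306), the smallest errors among the 10 genes in either region, and both calls held whichever library was left out. *LTBP4*, a latent TGF-beta binding protein that also guides elastin assembly, is given for each genotype. In WT proximal lung it measured 456 and 377 CPM at day 120 and 194 and 168 CPM at term, and in WT distal lung 522 and 617 CPM and then 273 and 243 CPM. In CF proximal lung it measured 606 and 325 CPM at day 120 and 446 and 556 CPM at term, and in CF distal lung 637 and 581 CPM and then 664 and 428 CPM. The time points did not overlap in WT and overlapped in CF, in proximal lung through the library that stood apart, without which day 120 (606 CPM) lay above both term libraries. Averaged over genotypes it fell by 0.67 ± 0.20 in distal lung (adjusted p = 0.0169), which a correction for gene length reduced to -0.42 with loss of the call, as did leaving out the second WT or first CF library of day 120 or the second library of term of either genotype, and gave -0.55 ± 0.23 in proximal lung (adjusted p = 0.150).

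*LOX*, lysyl oxidase, oxidises lysines of tropoelastin and collagen so that they can cross-link, and it had the lowest level and the widest replicate spread. The WT proximal libraries measured 21.8 and 28.6 CPM at day 65, 30.8 and 36.8 CPM at day 80, 31.2 and 30.9 CPM at day 100, 50.4 and 48.6 CPM at day 120 and 13.7 and 14.0 CPM at term. The WT distal libraries measured 23.6 and 21.8 CPM at day 65, 29.8 and 33.0 CPM at day 80, 26.3 and 24.0 CPM at day 100, 54.5 and 51.1 CPM at day 120 and 21.1 and 12.2 CPM at term. WT replicates were close before term, and day 120 was the highest point of both courses. In CF proximal lung the 2 libraries measured 14.2 and 23.2 CPM at day 65, 6.32 and 30.4 CPM at day 80, 33.7 and 7.29 CPM at day 100, 60.3 and 3.83 CPM at day 120 and 14.0 and 54.2 CPM at term. The CF distal libraries measured 11.9 and 4.04 CPM at day 65, 27.3 and 22.9 CPM at day 80, 18.8 and 18.0 CPM at day 100, 65.7 and 12.7 CPM at day 120 and 11.6 and 28.5 CPM at term. CF replicates lay up to 15.7-fold apart, at day 120 in proximal lung, where the lower was the library that stood apart. Averaged over genotypes *LOX* fell by 1.34 ± 0.42 from day 120 to term in distal lung (adjusted p = 0.0221). Without the first CF distal library of day 120 this was -0.51 (adjusted p = 0.282), and the call was also lost without the first WT library of day 120, the second WT library of term or the first CF library of term. The proximal value was -0.88 ± 0.70 (adjusted p = 0.484), and -1.33 (adjusted p = 0.0941) without the CF library that stood apart. *LOXL1*, a lysyl oxidase that acts on elastin, was not called in any averaged interval, and its 8 values ranged from -0.36 to 0.69.

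**Figure D3:**
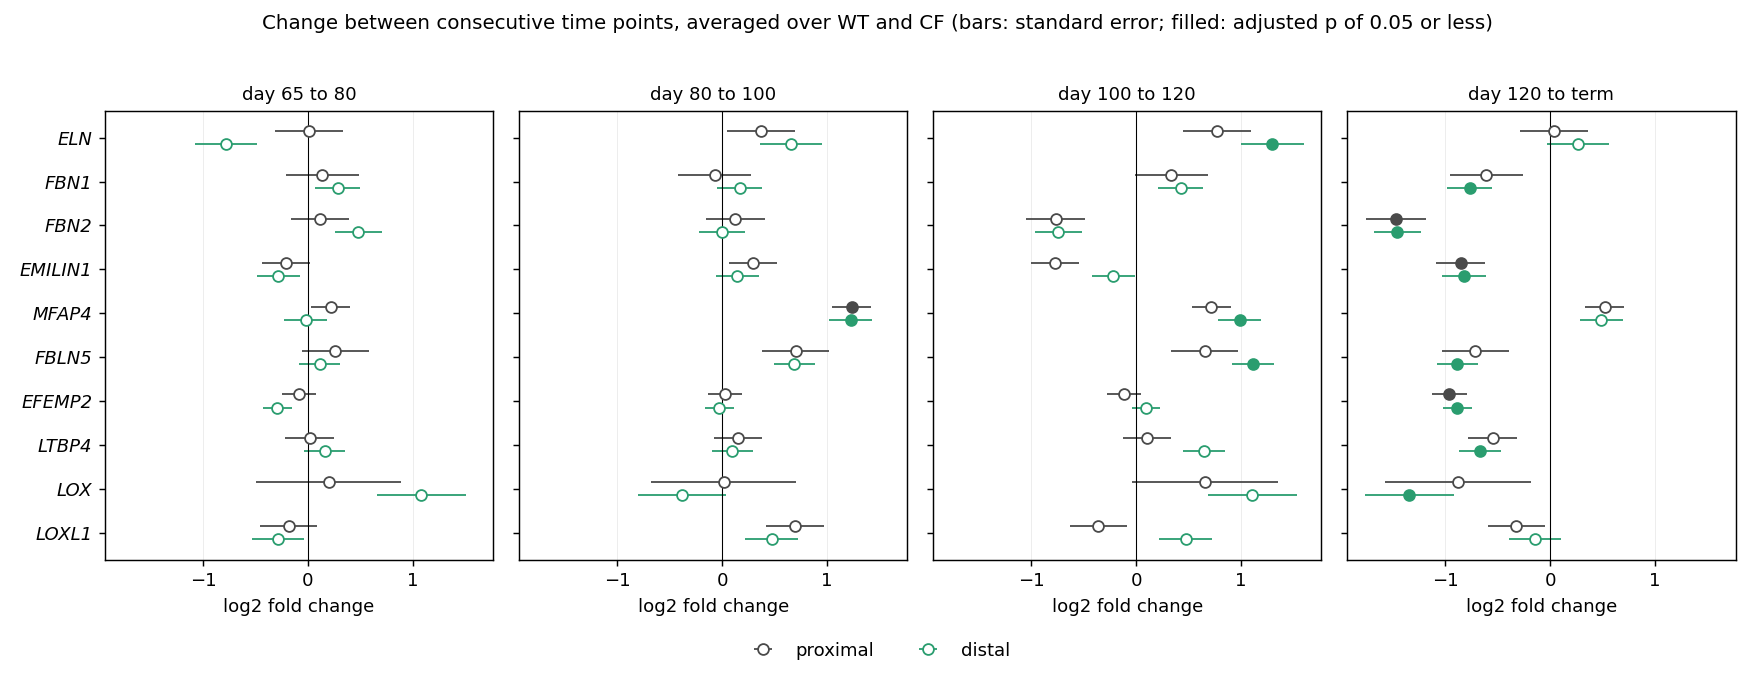
Log2 fold change between consecutive time points, averaged over genotypes, on the x axis for each of the 10 genes, with 1 panel per interval, proximal lung in grey, distal lung in green, bars for the standard error and filled points for an adjusted p of 0.05 or less. Filled points lie to the right of 0 at days 80 to 100 (*MFAP4*) and 100 to 120 (*ELN*, *MFAP4* and *FBLN5*) and to the left of 0 from day 120 to term.

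Counted over the averaged intervals, no member was called from day 65 to day 80, where 0.0639% of all genes were called in proximal and 0.194% in distal lung. At an unadjusted p under 0.05 the counts of members were 0 and 3. From day 100 to day 120, 3 of 10 were called as higher in distal lung against 4.25% of all genes, and 0 of 10 in proximal lung, where 2.4% of all genes were called in either direction. In that proximal interval 4 members had an unadjusted p under 0.05 and DESeq2 called 2, and without the CF library of day 120 that stood apart 2 were called, *FBLN5* (0.97, adjusted p = 0.0465) and *MFAP4* (0.76, adjusted p = 0.0492). In distal lung 4 of 5 endothelial markers (0.68 to 0.94), the smooth muscle marker *TAGLN* (1.10), the fibroblast marker *PDPN* (1.39) and the mesothelial marker *MSLN* (1.95) rose from day 100 to day 120 and the cartilage genes *COL2A1* (-6.66) and *SOX9* (-2.51) fell, and their part in the rise of the 3 members was not tested. From day 120 to term, 3 of 10 were called as lower in proximal lung (*FBN2*, *EFEMP2* and *EMILIN1*) against 5.21% of all genes. In distal lung 7 of 10 were called as lower, against 19.9% of all genes, and *ELN*, *MFAP4* and *LOXL1* were the others, of which DESeq2 called *MFAP4* as higher (0.51, adjusted p = 0.0391). The median log2 fold change of the 10 genes from day 120 to term was -0.79 in distal and -0.66 in proximal lung, and that of all genes tested was -0.005 in both. Without the CF proximal library of day 120 that stood apart, 5 of 10 were called in proximal lung, *FBLN5* and *LTBP4* joining the list.

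The time points were also compared within each genotype. In WT proximal lung, 6 of 10 genes fell from day 120 to term against 11.1% of all genes, with *LOX* (-1.84 ± 0.16, adjusted p = 0.00021) and *FBN2* (-1.50 ± 0.22, adjusted p = 0.00174) changing most. In WT distal lung 6 of 10 fell against 12.3%, again led by *LOX* (-1.69 ± 0.23, adjusted p = 0.00192). *MFAP4* rose from day 80 to day 100 in WT, by 1.88 ± 0.23 in proximal and 1.71 ± 0.18 in distal lung, as the 1 member called by edgeR where 1.27% and 0.75% of all genes were. DESeq2 also called *FBLN5* in this WT interval, in proximal (1.08, adjusted p = 0.00052) and distal lung (0.79, adjusted p = 0.0281). The length correction, thinning and no filter each called *FBLN5* in proximal lung too. In WT distal lung *MFAP4*, *LTBP4* and *LOX* rose from day 100 to day 120, 3 of 10 against 1.34%, with values of 0.99 to 1.07 and adjusted p of 0.0230 to 0.0453. Against 11.5% of all genes, 2 of 10 fell from day 120 to term in CF distal lung, *FBN2* by 1.74 ± 0.35 and *EFEMP2* by 1.00 ± 0.22 on the log2 scale. The falls of *FBLN5*, *EFEMP2*, *FBN2* and *LOX* in WT proximal lung and of *LTBP4* and *LOX* in WT distal lung were called whichever of the 10 libraries was left out, and each of the other calls was lost without at least 1 library, that of *LOX* from day 100 to day 120 without 8 of 10. With the WT day 100 libraries summed, all 3 WT distal calls from day 100 to day 120 were lost, as were those of *MFAP4* from day 80 to day 100 and of *EMILIN1* from day 120 to term in WT distal lung. In the other intervals no member was called by edgeR, and 0 to 5 members had an unadjusted p under 0.05. DESeq2 called 5 values there, those of *LOX* and *MFAP4* in WT proximal lung and of *ELN* and *FBLN5* in CF distal lung from day 100 to day 120, and of *MFAP4* in CF proximal lung from day 120 to term (1.21, adjusted p = 0.00330). The shares of all genes called in these were 0.011% and 2.67% for days 65 to 80 and 100 to 120 in WT proximal lung, 0.0164% for days 65 to 80 in WT distal lung, 0%, 0%, 0.0203% and 0.356% for the 4 intervals in CF proximal lung, and 0%, 0% and 0.928% for the first 3 in CF distal lung.

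Further genes of the elastic fibre, 43 in number, covered other microfibril and assembly proteins, cross-linking and copper delivery, elastases with their inhibitors, the elastin receptor complex and latent TGF-beta. From day 120 to term in distal lung 10 of them rose and 12 fell, where 18.7% of all genes rose and 19.9% fell, and in proximal lung 5 rose and 5 fell, where 6.17% and 5.21% did. The largest distal changes were those of *MMP12*, macrophage elastase (5.64 ± 1.82), *SERPINA1*, the main inhibitor of neutrophil elastase (5.63 ± 1.46), and *LOXL4*, a lysyl oxidase (2.19 ± 0.39). Leukocyte markers moved with this interval. Their sum over 5 genes was 26.3 to 54.2 CPM before term and 289.7 to 652 CPM at term in WT, and 39.2 to 71.4 CPM and 60.1 to 143 CPM in CF, and their part in the changes of *MMP12* and other proteases was not tested. In proximal lung the largest changes were those of the cathepsins *CTSL* (2.11 ± 0.57) and *CTSS* (2.10 ± 0.26), which degrade elastin, and of *LOXL4* (2.07 ± 0.51). These values are averages over genotypes, and those of *CTSL* and *LOXL4* do not hold for each genotype. The change in CF minus that in WT was -5.26 for *CTSL* and -4.41 for *LOXL4* in proximal lung, and -5.30 for *LOXL4* in distal lung. From day 100 to day 120 in distal lung 6 rose and 2 fell, where 4.25% and 3.27% of all genes did, led by the microfibril gene *MFAP5* (2.56 ± 0.61) and *LOXL4* (2.30 ± 0.41). The 2 that fell were *VCAN* and *TGFB3*. From day 80 to day 100 in distal lung *ADAMTSL2*, *LTBP2* and *ADAMTSL4* rose, by 1.00 to 1.28, 3 of 43 where 1.36% of all genes rose. Of the 7 fibroblast markers, 4 fell from day 120 to term in distal and 1 in proximal lung. Their sum was 7674 to 13409.8 CPM before term and 4723 to 8041 CPM at term in WT, and 8677 to 24827 CPM and 3049 to 9137 CPM in CF. Other cell type markers moved with this interval in distal lung too. Of the smooth muscle markers 3 of 7 fell and 1 rose (4 rose and 0 fell in WT alone, and 6 fell and 0 rose in CF alone), of the pericyte markers 3 of 5 fell, of the endothelial markers 2 of 5 fell (*CDH5* -0.72, *KDR* -0.51), the cartilage gene *COL11A2* fell by 1.15, and all 6 epithelial markers rose, their sum being 577 to 896 CPM before term and 1569.6 to 1794 CPM at term in WT and 448 to 938 CPM and 752 to 1407 CPM in CF. In proximal lung 2 of 7 smooth muscle markers (*MYOCD* -1.52, *MYH11* -1.18) and 2 of 5 pericyte markers (*RGS5* -2.50, *NOTCH3* -0.99) and the cartilage gene *COL2A1* (-4.29) fell and 2 of 6 epithelial markers (*EPCAM* 0.83, *NKX2-1* 0.75) rose. The part of these markers in the fall of the 7 distal and 3 proximal members was not tested.

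The next question was whether the genes differed between CF and WT. *LTBP4* was the 1 gene called in both regions, before term and at term. In proximal lung before term its CF libraries measured 543 and 505 CPM at day 65, 370.3 and 544 CPM at day 80, 479.6 and 552 CPM at day 100 and 606 and 325 CPM at day 120, and the WT libraries 238 and 272 CPM, 332 and 265 CPM, 230.0 and 424 CPM, and 456 and 377 CPM. In distal lung the CF libraries measured 523 and 277 CPM, 471 and 538 CPM, 427 and 584 CPM, and 637 and 581 CPM, and the WT libraries 218 and 303 CPM, 266 and 239.9 CPM, 305 and 269 CPM, and 522 and 617 CPM at these days. CF lay above WT without overlap at days 65, 80 and 100 in proximal and at days 80 and 100 in distal lung, and the genotypes overlapped at day 120. The proximal overlap at day 120 came from the CF library that stood apart (325 CPM), and the difference of that day was 0.16 with it and 0.53 without it. Averaged over the 4 days, *LTBP4* was higher in CF by 0.62 ± 0.16 in proximal (1.53-fold, adjusted p = 0.0169) and by 0.63 ± 0.14 in distal lung (1.55-fold, adjusted p = 0.00359). At term it was higher by 1.47 ± 0.33 in proximal (2.77-fold, adjusted p = 0.0192) and by 1.11 ± 0.28 in distal lung (2.16-fold, adjusted p = 0.0185). The term calls were lost when either WT library of the same region, the second CF proximal library or the first CF distal library was left out, the lowest value over the leave-one-out fits being 1.28 in proximal and 0.71 in distal lung. The proximal call before term was lost without the second WT library of day 80.

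Before term 2 of 10 genes were higher in CF in proximal lung, where 13.8% of all genes were, and 2 of 10 in distal lung, where 18.6% were, so neither count stood far from the share of all genes. Besides *LTBP4* they were *LOXL1* in proximal lung (0.68 ± 0.19, adjusted p = 0.0230) and *EFEMP2* in distal lung (0.27 ± 0.10, adjusted p = 0.0471). *LOXL1* measured 149.7 and 132 CPM in CF and 59.6 and 80.5 CPM in WT proximal lung at day 65, without overlap, and 143 and 172 CPM against 69.5 and 185 CPM at day 100, with overlap. The *LOXL1* call was lost without the first WT or CF library of day 65, the second WT or CF library of day 80, the second CF library of day 100 or the second WT library of day 120 (0.55 to 0.90). The *EFEMP2* call was lost in 16 of 20 fits that left out 1 library and when the WT day 100 libraries were summed. The difference of *LOX* was -0.68 ± 0.30 in distal and -0.63 ± 0.49 in proximal lung, and neither was called by edgeR (adjusted p = 0.0963 and 0.395, the proximal value being -0.41 without the library that stood apart), while DESeq2 called the distal one (-0.70, adjusted p = 0.0472). *ELN* differed by 0.43 ± 0.23 in proximal lung (interval -0.07 to 0.92) and by 0.09 ± 0.21 in distal lung (interval -0.35 to 0.54), and was not called. On single days before term no member was called by the quasi-likelihood test used throughout. With DESeq2, *LTBP4* was called at day 80 in distal lung (0.97, adjusted p = 0.0115), as it was with bias-adjusted quasi-likelihood (0.99, adjusted p = 0.0476), and *MFAP4* at day 80 in proximal lung (0.88, adjusted p = 0.0479). The shares of all genes called at days 65, 80, 100 and 120 were 0.167%, 0.0885%, 0.383% and 1.35% in proximal and 5.23%, 5.92%, 5.3% and 4.38% in distal lung. At term *LTBP4* was the 1 member called as higher in each region, where 2.6% and 7.65% of all genes were.

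**Figure D4:**
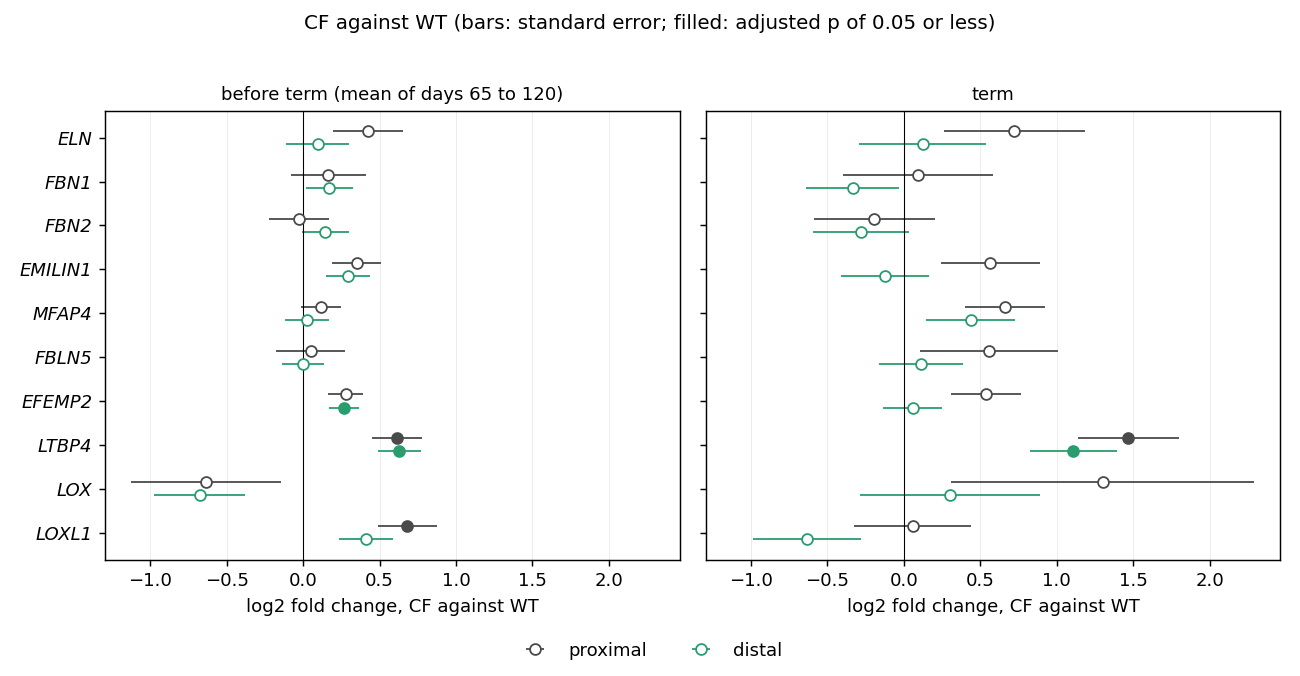
Log2 fold change of CF against WT on the x axis for each of the 10 genes, before term (average of days 65 to 120, left) and at term (right), with proximal lung in grey, distal lung in green, bars for the standard error and filled points for an adjusted p of 0.05 or less. *LTBP4* is filled and to the right of 0 in both regions and both panels.

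The change in each interval was compared between genotypes as an interaction. In the 3 intervals up to day 120 no member was called by edgeR or DESeq2, where 0.00996% of all genes were called in distal lung from day 80 to day 100 and 0% otherwise, and in each region and interval 0 or 1 member had an unadjusted p under 0.05. From day 80 to day 100 the change of *MFAP4* was smaller in CF by 1.32 ± 0.37 in proximal lung (interval -2.11 to -0.52) and by 1.00 ± 0.41 in distal lung (interval -1.87 to -0.12), with adjusted p of 1.00 in both. Without the first CF proximal library of day 120, *FBN2* was called from day 100 to day 120 in proximal lung (-1.48, adjusted p = 0.0423), the CF sample left at day 120 then being the library that stood apart. For the change from day 120 to term no member was called in either region, where 1.78% of all genes were called in proximal and 9.31% in distal lung. In each region 2 members had an unadjusted p under 0.05, and DESeq2 called *MFAP4* in proximal lung (1.42, adjusted p = 0.00794). The nearest in proximal lung was *MFAP4*, whose change was larger in CF by 1.39 ± 0.37 there (adjusted p = 0.0767, interval 0.60 to 2.19) and by 1.02 ± 0.41 in distal lung (adjusted p = 0.131). *LTBP4* gave 1.31 ± 0.46 in proximal (adjusted p = 0.183) and 1.00 ± 0.40 in distal lung (adjusted p = 0.128). Its fall in WT and the absence of a call in CF are therefore not shown to differ. Without the CF proximal library of day 120 that stood apart, none was called in proximal lung, with *MFAP4* at 1.31 (adjusted p = 0.0765) and *LTBP4* at 0.92 (adjusted p = 0.244), and 1 member had an unadjusted p under 0.05. Without its replicate, which leaves the library that stood apart as the 1 CF proximal sample of day 120, 4 were called, *FBLN5*, *LOX*, *LTBP4* and *MFAP4*. For *ELN* the differences were 0.05 ± 0.65 and -0.32 ± 0.59, with intervals of -1.34 to 1.44 and -1.57 to 0.94.

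The 43 further genes had 10 members higher and 0 lower in CF before term in proximal lung and 14 higher and 2 lower in distal lung. Of all genes, 13.8% were higher and 6.77% lower in proximal and 18.6% higher and 13.6% lower in distal lung. The largest differences were those of *ADAMTSL4* (1.59 ± 0.18), *ADAMTSL2* (1.45 ± 0.36) and *LTBP2* (1.30 ± 0.21) in proximal lung, all of them proteins bound to microfibrils, and of *ADAMTSL2* (1.61 ± 0.21), the procollagen protease *BMP1* (1.39 ± 0.19) and *MFAP5* (-1.30 ± 0.42) in distal lung. Smooth muscle and myofibroblast markers, 7 genes, moved with genotype, and before term 7 of 7 were higher in CF in proximal and 6 of 7 in distal lung. Before term their sum was 664 to 1579 CPM in CF and 297 to 791 CPM in WT, and at term 279.9 to 559 CPM in CF and 623 to 1014 CPM in WT. Other markers moved with genotype before term in both regions. In proximal and distal lung the pericyte genes *CSPG4* (0.92 and 0.83) and *NOTCH3* (0.61 and 0.70), the endothelial *VWF* (0.94 and 1.21), the cartilage gene *COL11A2* (1.96 and 1.46) and the leukocyte marker *CD68* (0.93 and 0.95) were higher in CF, and the epithelial *EPCAM* (-0.71 and -0.67), the fibroblast marker *TCF21* (-0.46 and -0.36) and the leukocyte marker *PTPRC* (-0.79 and -0.73) were lower. In 1 region each, *ACAN* and *MSLN* (proximal) and *COL1A1* and *SOX9* (distal) were higher and *KRT8* (distal) lower. In distal lung at term the pericyte genes *RGS5* (2.99) and *KCNJ8* (1.07) and the endothelial *TEK* (1.17) were higher in CF and *KRT8* (-1.08) lower. At term the fibroblast markers *TCF21* (1.69 and 1.44 in proximal and distal lung) and *PDGFRA* (1.25 and 1.15) were higher in CF and *PDPN* lower (-2.02 and -1.94). The part of these markers in the differences between genotypes was not tested. At term 7 of the 43 were higher and 5 lower in CF in proximal lung and 6 higher and 6 lower in distal lung, where the shares of all genes were 2.6% and 3.49%, and 7.65% and 7.57%. *LOXL4* and *CTSL* were lower in CF, with log2 fold changes of -2.74 ± 0.73 and -4.16 ± 0.87 in proximal lung and -3.66 ± 0.58 and -3.36 ± 0.70 in distal lung, and *FBLN2*, fibulin-2, was higher by 2.31 ± 0.46 in proximal and 1.76 ± 0.30 in distal lung. *ADAMTSL2*, which was higher in CF before term in both regions, was lower in distal lung at term (-2.30 ± 0.42, adjusted p = 0.00303). Of the 5 leukocyte markers, *MARCO* (-5.33 in proximal and -4.72 in distal lung) and, in proximal lung, *CD68* (-1.49) were lower in CF at term, and their part in these differences was not tested. The change of *LOXL4* and *CTSL* from day 120 to term also differed between genotypes, by -4.41 ± 1.02 for *LOXL4* and -5.26 ± 1.16 for *CTSL* in proximal lung and by -5.30 ± 0.80 and -3.24 ± 0.94 in distal lung, as did that of *ADAMTSL2* in distal lung (-2.89 ± 0.59).

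The last comparison set proximal against distal lung of the same animals. Averaged over genotypes and days, no member was called, and 0.0193% of all genes, 4 in number, were called. The 10 values lay between -0.08 and 0.16. *ELN* differed by -0.02 ± 0.15 with an interval of -0.32 to 0.28, and *LTBP4* by -0.08 ± 0.10. At an unadjusted p under 0.05 the count of members was 0, and it was 0 by adjusted p under DESeq2 and with the animal as a block. On single days 0% of all genes and no member were called at days 65, 80, 100 and 120 and at term. At day 100, 9 of the 10 genes were higher in proximal lung, with a median of 0.19 against 0.01 over all genes, and at day 120 all 10 were lower there, with a median of -0.17 against -0.01. Without the CF proximal library of day 120 that stood apart, 6 of 10 were lower at day 120 (median -0.11), and *FBN1*, *FBN2*, *FBLN5* and *LOX* had values of 0.15 to 0.26, so the shared sign rested on that library.

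**Figure D5:**
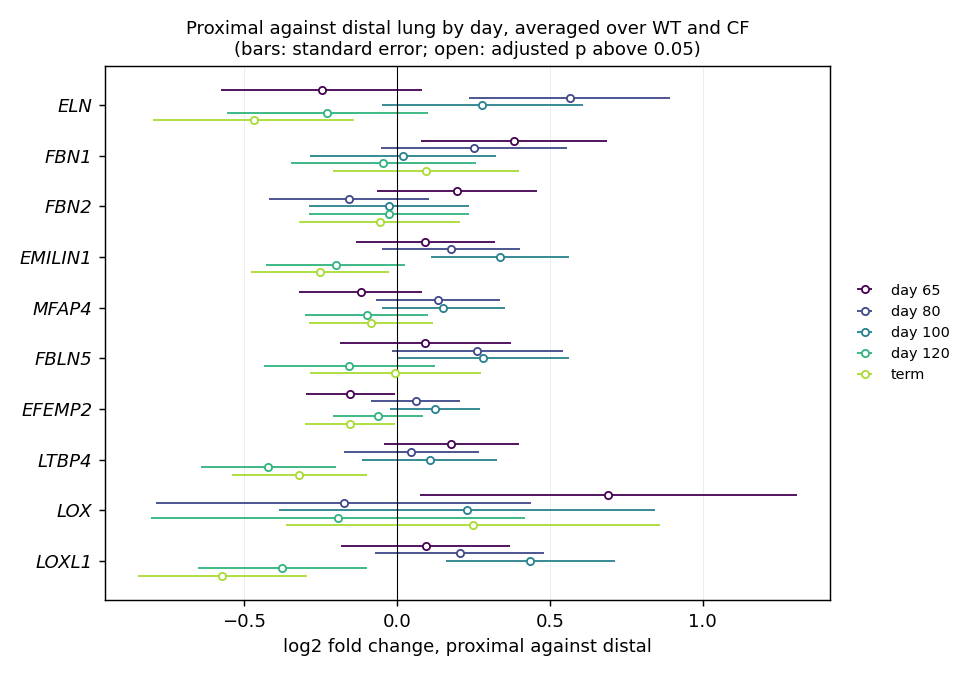
Log2 fold change of proximal against distal lung on the x axis for each of the 10 genes at each day, averaged over genotypes, with bars for the standard error. All points are open, for an adjusted p above 0.05, and at day 120 all 10 lie to the left of 0, or 6 of 10 without the CF proximal library that stood apart.

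Across the 40 libraries the 10 genes did not vary as a block. The highest Pearson correlations of log2 CPM between members were those of *EFEMP2* with *EMILIN1* (r = 0.89), *ELN* with *MFAP4* (r = 0.80) and *FBN2* with *EMILIN1* (r = 0.75), and the lowest were those of *ELN* with *FBN2* (r = -0.68) and *FBN2* with *MFAP4* (r = -0.68). These libraries share animals, time points and depth classes. Within a course of 10 libraries the median r over the 45 pairs was 0.36 in WT proximal, 0.43 in WT distal, 0.04 in CF proximal and 0.19 in CF distal lung. Among 13700 other genes with a mean log2 CPM of at least 1, those most correlated with *ELN* over the 40 libraries were *WFDC2* (r = 0.88), *SYBU* (r = 0.87), *FST* (r = 0.86), *C3* (r = 0.86) and *PI16* (r = 0.85). Those most correlated with the mean of the 10 scaled profiles were *LHFPL2* (r = 0.85), *TBXA2R* (r = 0.82), *PRICKLE1* (r = 0.81), *COL24A1* (r = 0.80) and *CD93* (r = 0.80).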

How the data were processed

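RNA of snap-frozen proximal and distal lung was made into oligo-dT-primed, paired-end libraries. The authors aligned reads to Oar_v4.0 with STAR (their processing notes list version 2.6, the methods a later one) and deposited raw counts per gene from featureCounts 1.6.3. The handling of strand and mates was not given in the sources used here. Of counts from 1 to 20, 69.2% to 85.8% per library were even. A second deposited table with the same CF counts was not used. The deposited counts, 24670355 to 126749480 per library, were filtered with filterByExpr (10 counts), scaled by TMM and fitted with edgeR 4.0.16 in R 4.3.3 by quasi-likelihood (the script was tested on simulated data). Each course (10 libraries) gave the test over time and the intervals, each region (20) the averaged intervals and CF against WT, and all 40 proximal against distal. Genes were called at an adjusted p of 0.05. Replicates are separate samples by label, and the tests set a difference against the spread between them. In CF that spread is between clones of 1 cell line, and at WT day 100 it may lie within 1 animal. Proximal and distal samples shared animals by label, and their replicate differences correlated from -0.09 to 0.63 over 10 conditions, so an animal block was an alternative for that comparison. Alternatives were RLE scaling, DESeq2 1.42.0, bias-adjusted quasi-likelihood, no filter, thinning, a length correction, the replicate block, summed WT day 100 libraries, the stricter limit of the study and leaving out each library. Figures were drawn with matplotlib 3.10.9. The 10 members and all lists were chosen with earlier results of these data known. All 10 members are named, from the 43 further genes at most the 3 with the largest called change per comparison, and the 5 genes most correlated with *ELN* and with the members' mean. Genes that fell outside this rule were named after their values were seen. They were *VCAN*, *TGFB3*, *FBLN2* in distal lung at term and single cell type markers. For the difference between genotypes in the change to term, they were the genes beyond the 3 largest in each region.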

Additional observations from a re-analysis of the deposited data

Results flagged for a closer look

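The change from day 120 to term differed between CF and WT, by the interaction test of edgeR over all genes, for 6 genes of the wider elastic fibre list that are named above, and for others of that list. Of all genes, 1.78% were called in proximal and 9.31% in distal lung. The others were *CTSK* (1.94 in proximal and 1.53 in distal lung), *LOXL3* (-1.64 and -1.88) and, in distal lung, *EMILIN2* (-2.14), *CTSA* (-1.64), *LTBP3* (-1.27), *DCN* (1.21) and *EFEMP1* (1.16). For *LOXL4* the difference was -4.41 in proximal (adjusted p = 0.0450) and -5.30 in distal lung (adjusted p = 0.00188). For *CTSL* it was -5.26 (adjusted p = 0.0363) and -3.24 (adjusted p = 0.0441), and for *ADAMTSL2* it was -2.89 in distal lung (adjusted p = 0.00886). In distal lung it was also -1.82 for *ADAMTSL4* (adjusted p = 0.00614), -1.60 for *LTBP2* (adjusted p = 0.0466) and 1.43 for *FBLN2* (adjusted p = 0.0438). The sum of 5 leukocyte markers at term was 289.7 to 652 CPM in WT and 60.1 to 143 CPM in CF. Cell type markers were called in the same interaction too. In proximal and distal lung these were *MYH11* (-1.90 and -2.37), *CNN1* (-3.36 and -3.85), *ACTG2* (-3.44 and -3.53), *MYOCD* (-2.07 and -2.50), *CD68* (-2.60 and -2.02) and *TCF21* (2.53 and 2.37). In distal lung alone they were *ACTA2* (-2.94), *TAGLN* (-1.82), *PDGFRA* (1.54), *EPCAM* (0.94) and *TEK* (0.91). The part of all these markers in the differences was not tested.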

How the results depend on the processing

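The called values of the 10 genes, 63 in number, gave 1398 recomputed values, 1203 of which were still called. No called fold change changed sign, while the tests over the 5 time points have no sign to change. All 63 were called after thinning to equal depth, with DESeq2 and with bias-adjusted quasi-likelihood, 62 with DESeq2's type of size factors (RLE) and 62 without the filter. The length correction kept 59. It lost *FBN1* in WT proximal lung from day 120 to term and *LOX* in WT distal lung from day 100 to day 120, besides the averaged distal falls of *FBN1* and *LTBP4* given above. Under the study's stricter limit (adjusted p up to 0.001, and 0.58 or more on the log2 scale) 9 of 63 were called. That limit left 5 genes in WT proximal, 1 in WT distal, 0 in CF proximal and 0 in CF distal lung over the time points, 1 of 160 interval values within courses, 2 genes in distal and 0 in proximal lung from day 120 to term, 0 in either region from day 80 to day 100, 0 in distal lung from day 100 to day 120, and 0 in CF against WT before and at term in both regions. DESeq2 called 4 genes over time in CF proximal and 10 in WT distal lung, *MFAP4* as higher in distal lung to term, 33 interval values within courses, 2 in proximal and 5 in distal lung from day 100 to day 120, 2 in distal lung from day 80 to day 100, 1 on single days in each region, *LOX* as lower in CF distal lung before term and 1 in the proximal difference between genotypes. A length correction gave 3 genes over time in CF proximal lung, 1 in proximal and 5 in distal lung from day 100 to day 120 and 2 in distal lung from day 80 to day 100. RLE and thinning each gave 1 in proximal lung from day 100 to day 120. In distal CF against WT before term RLE, no filter and summing the WT day 100 libraries each left 1, and that summing left 1 in distal lung from day 100 to day 120 and lost 9 calls in all, while *EMILIN1* was gained in WT proximal lung from day 120 to term (-0.94, adjusted p = 0.0371). Bias-adjusted quasi-likelihood called 1 on single days in distal lung. Causes of these shifts were not tested.

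Leaving out 1 library gave 6 to 8 genes over time in WT proximal, 7 to 10 in WT distal, 1 to 3 in CF proximal and 4 to 7 in CF distal lung, and 12 to 23 interval values within courses. Averaged over genotypes it gave 0 from day 65 to day 80 in both regions, 0 to 1 from day 80 to day 100 in both, 0 to 2 (proximal) and 1 to 5 (distal) from day 100 to day 120, and 2 to 5 and 4 to 8 to term. CF against WT before term gave 0 to 4 (proximal) and 1 to 4 (distal), 0 to 1 at term in both, 0 to 3 and 0 to 1 on single days, 0 to 4 and 0 to 1 for the difference between genotypes in the change to term, and 0 to 1 and 0 in the 3 earlier intervals. Proximal against distal gave 0 in all. Where this left 1 library in a condition, it was assumed to vary like the others.

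With the replicate number as a block, 62 of 63 values were called (*LTBP4* over time in WT proximal lung was not, adjusted p = 0.0665) and 7 were gained. Averaged over genotypes, *FBN2* fell in distal lung from day 100 to day 120 (-0.76, adjusted p = 0.00760) and *FBLN5* made 2 genes from day 80 to day 100 (0.70, adjusted p = 0.0330). In CF distal lung *FBN1* (adjusted p = 0.0182) and *FBLN5* (adjusted p = 0.0293) joined the fall to term and *FBN1* was called over time (adjusted p = 0.0337), in WT distal lung *FBLN5* was called from day 100 to day 120 (adjusted p = 0.0460), and *LTBP4* was the 1 call on single days, at day 80 in distal lung (adjusted p = 0.0411). Groups of 2 libraries are too small for Dixon's test of an outlying sample, and no other outlier test was run. The lowest count of a member in any library was 330 (*LOX*).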
